A study of Mus musculus with 10 samples.

Results

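Cytochrome P450 (CYP) genes of families 1 to 4 were compared between GUCY2Chi and GUCY2Cmed cells sorted from the small intestine of mice. The members are the protein-coding genes of the deposited count table whose symbols begin with Cyp1, Cyp2, Cyp3 or Cyp4 followed by a subfamily letter and a number, so they were chosen by name and not by level. They number 80 of 54532 listed genes and fall into 21 subfamilies. A further 30 matching rows of other gene types, such as pseudogenes, were left out.

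All cells came from 5 litter-matched Gucy2c-GFP reporter mice, 10 weeks old, on the outbred CD1/ICR background. The GFP transgene, made by the GENSAT project, is driven by the promoter of Gucy2c, the guanylyl cyclase C receptor of intestinal epithelium, and every mouse of both groups carried it. From each mouse, 20000 live single cells with high GFP fluorescence (GUCY2Chi) and 20000 with medium fluorescence (GUCY2Cmed, called Lo in some labels) gave 1 RNA-seq library each, so each group has n = 5. The libraries bear the numbers 2, 7, 12, 14 and 15, read here as those of the mice. Gucy2c itself ranged from 549 to 1757 counts scaled to library size (cpm) in GUCY2Chi and from 323 to 483 cpm in GUCY2Cmed libraries (log2 fold change 1.71 ± 0.32 (SE), adjusted p = 0.00187).

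P450 enzymes of these families sit in the endoplasmic reticulum membrane and hold a heme group that splits oxygen, using electrons passed from NADPH by P450 oxidoreductase. Families 1 to 3 oxidize drugs, dietary compounds, steroids and arachidonic acid, whereas family 4 mostly hydroxylates the ends of fatty acids and eicosanoids. In the intestine they are known mainly as enzymes of absorptive enterocytes, where they act on compounds taken up from the lumen. Many lie in gene clusters that arose by local duplication.

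The libraries held 13090212 to 13520800 counted reads in GUCY2Chi and 10903958 to 15307932 in GUCY2Cmed cells. All 18 enteroendocrine markers on a fixed list were higher in GUCY2Chi cells (100%, against 13.9% of all tested genes), with a summed level of 35366 to 136995 cpm against 122 to 329 cpm. The 16 enterocyte markers all had negative fold changes, of which 3 passed the test (18.75%, against 8.79% of all tested genes). Their summed level was 55858 to 75215 cpm in GUCY2Cmed libraries and split the GUCY2Chi libraries, being 4.68% to 6.26% of the GUCY2Cmed mean in mice 2, 7 and 14 but 45.5% and 46.2% in mice 12 and 15. Values without those 2 libraries are given beside the results they moved most. Both were above the other GUCY2Chi libraries for 24 of the 30 tested members with negative fold changes. Leaving them out therefore widens these differences, and the smaller p-values that result are not further support for them. The GUCY2Chi libraries also differed in other markers. Summed Paneth cell markers were 428% and 251% of the GUCY2Cmed mean in mice 2 and 14, and 57.9% to 97.0% in the rest. Goblet cell markers were 326% in mouse 2 and 41.7% to 135% in the rest. In sorted pools such as these, fewer cells of a type and less RNA per cell cannot be told apart.

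Expression of 43 members in 17 subfamilies was high enough to test, at more than 0.5 cpm in at least 3 libraries. Of the 37 others, 10 had no read in any library and 27 had a few, with at most 14 reads in a library. The comparison used the quasi-likelihood test of edgeR on 15703 genes, with a Benjamini-Hochberg adjusted p below 0.01 counted as a call. By this test 5 members were higher in GUCY2Chi cells, 6 were lower and 32 did not pass. The 5 higher members are 11.6% of those tested, against 13.9% of all tested genes, and the 6 lower are 13.95%, against 8.79%.

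The direction of the members as a whole was less even than the calls. Fold changes were below 0 for 30 members and above 0 for 13, with a median log2 fold change of -1.44 against 0.09 over all tested genes. The 2 groups did not overlap for 15 members that were lower in every GUCY2Chi library, which is 34.9% of those tested against 13.2% of all tested genes. For 5 members (11.6%, against 16.7% of all tested genes) every GUCY2Chi library was higher. Of the 15 lower, 10 did not pass the test, with adjusted p between 0.0110 and 0.0573. Without GUCY2Chi libraries 12 and 15 the calls were 7 higher and 21 lower. Calls over all genes rose as well, from 2186 higher and 1381 lower of 15703 tested to 2711 and 2186 of 15160. Scaling also moved the split, to 5 higher and 4 lower with RLE factors (2215 and 1265 over all genes). With library size only it was 8 and 2 (2910 and 557 over all genes), and the median of all genes rose from 0.09 to 0.39. DESeq2, which changes the test as well as the scaling, called 8 higher and 16 lower (2960 and 2235 over all genes).

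**Figure D1:**
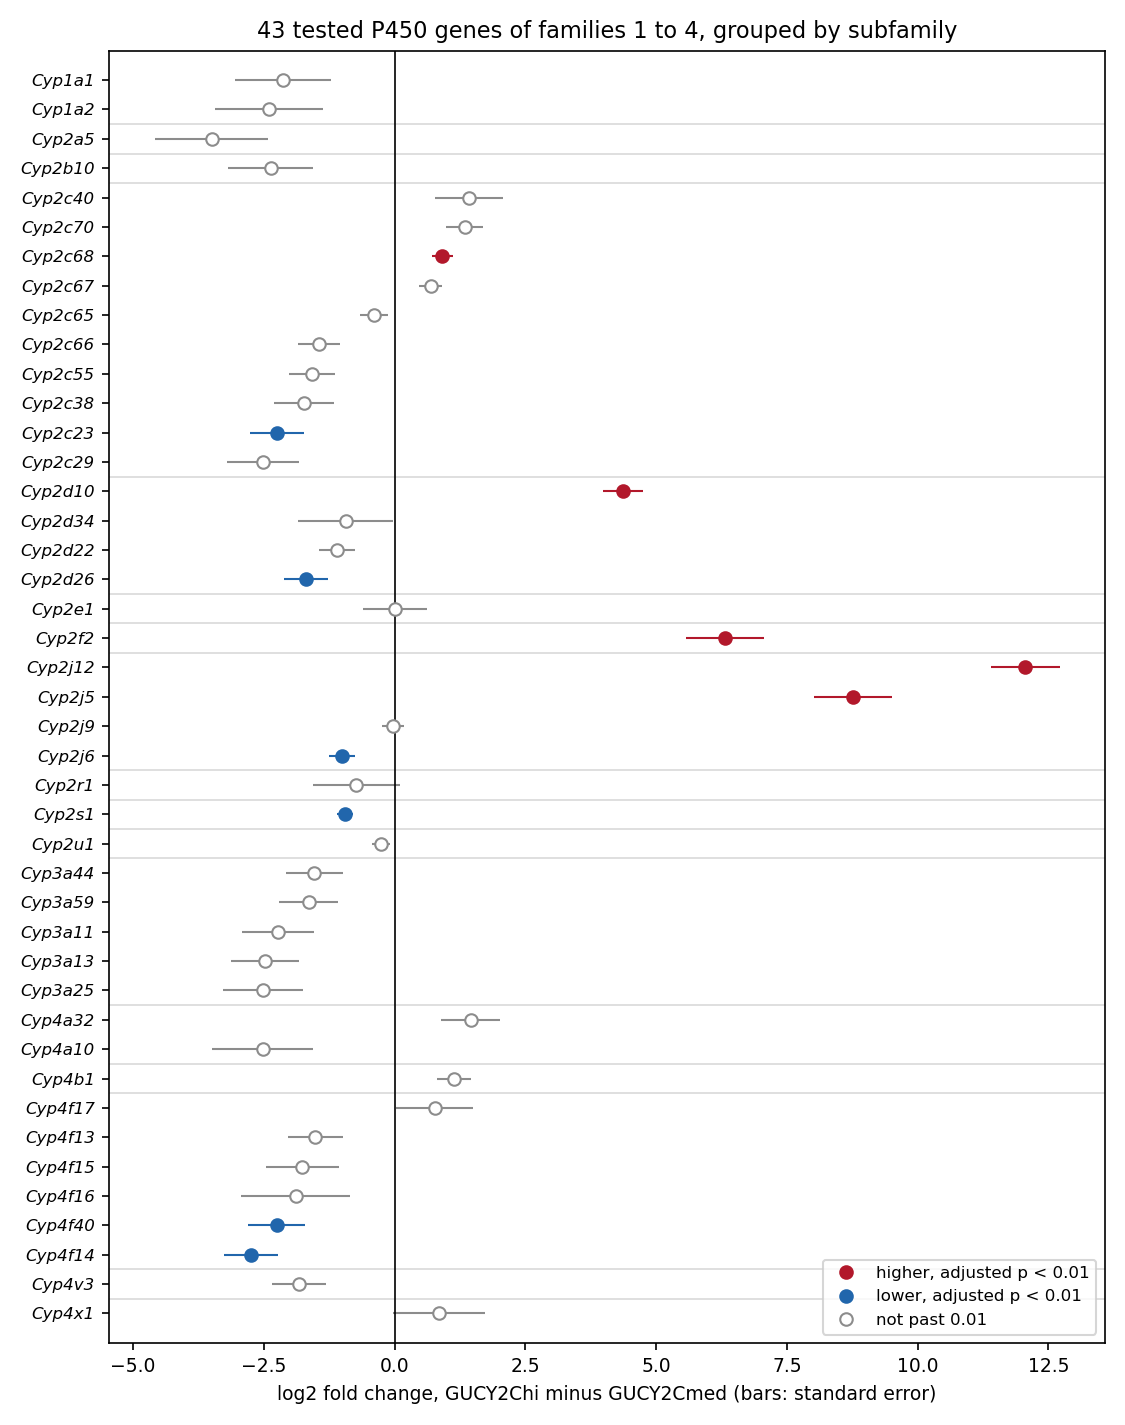
Log2 fold change (x axis, GUCY2Chi minus GUCY2Cmed) of each of the 43 tested members (y axis, grouped by subfamily), with bars for the standard error and filled points for an adjusted p below 0.01. The 5 filled red points lie to the right, led by Cyp2j12, whose fitted value depends on the prior count because no GUCY2Cmed read was found, and 30 of the 43 points lie below 0.

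In total, members took 1.03% to 1.27% of all counted reads in GUCY2Cmed libraries. In GUCY2Chi libraries they took 0.267%, 0.232% and 0.293% in mice 2, 7 and 14, and 0.588% and 0.768% in mice 12 and 15. By FPKM, the deposited level per length, Cyp3a11 had the highest mean of the members in both groups, at 1484 ± 179 in GUCY2Cmed and 378 ± 390 in GUCY2Chi cells (SD, n = 5). Cyp3a25, Cyp2b10, Cyp2d26 and Cyp4f14 followed in GUCY2Cmed cells, and together these 5 made up 70.1% of the summed FPKM of the members. The order in GUCY2Chi cells was Cyp3a11, Cyp4b1, Cyp3a25, Cyp2b10 and Cyp2d26, with 57.3% of the sum. The gene lengths that the FPKM values imply were 0.341 to 1 times those listed. The GUCY2Chi order rested on mice 12 and 15, since the mean FPKM without them was 464 ± 49.5 for Cyp4b1, 150.02 ± 26.4 for Cyp2c68, 149.8 ± 72.8 for Cyp2c65, 95.9 ± 13.3 for Cyp2d26 and 95.9 ± 12.96 for Cyp3a11 (SD, n = 3), with Cyp3a25 and Cyp2b10 at 38.2 and 30.7. With the listed lengths and all libraries the leading 5 were the same genes in GUCY2Cmed cells and Cyp4b1, Cyp3a11, Cyp2c65, Cyp2c68 and Cyp2b10 in GUCY2Chi cells.

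The sharpest contrast between neighbouring genes was in the Cyp2j cluster on chromosome 4 (positions on GRCm38, which holds the deposited place of 80 of 80 members, although the labels name mm9). Its 4 tested genes lie on the minus strand within 96099318 to 96664154, and 2 were higher, 1 was lower and 1 did not pass the test. The 250 bases before each start, from RefSeq (GRCm38.p6), are shown so that the neighbours can be compared. Capitals mark matches, on either strand, to TATAAA (the TATA box), AGGTCA (the hexamer bound by nuclear receptors), GTTAAT (part of the site bound by HNF1), GCGTG (the core bound by the aryl hydrocarbon receptor), CAGATG (an E-box bound by NEUROD1-type factors) and CAAAGTCCA (an HNF4-type element), none of which contains another.
Cyp2j12, chr4:96141153-96141402, minus strand: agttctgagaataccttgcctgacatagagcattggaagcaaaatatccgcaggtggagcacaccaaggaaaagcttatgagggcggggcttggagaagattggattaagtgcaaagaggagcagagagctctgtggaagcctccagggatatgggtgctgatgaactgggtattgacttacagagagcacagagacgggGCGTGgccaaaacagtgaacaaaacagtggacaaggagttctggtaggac
Cyp2j6, chr4:96553652-96553901, minus strand: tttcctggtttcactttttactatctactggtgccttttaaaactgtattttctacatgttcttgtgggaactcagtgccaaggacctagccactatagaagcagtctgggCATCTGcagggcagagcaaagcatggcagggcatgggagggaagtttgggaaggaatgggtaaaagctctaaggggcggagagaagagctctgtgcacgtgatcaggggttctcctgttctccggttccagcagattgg
Cyp2j9, chr4:96591486-96591735, minus strand: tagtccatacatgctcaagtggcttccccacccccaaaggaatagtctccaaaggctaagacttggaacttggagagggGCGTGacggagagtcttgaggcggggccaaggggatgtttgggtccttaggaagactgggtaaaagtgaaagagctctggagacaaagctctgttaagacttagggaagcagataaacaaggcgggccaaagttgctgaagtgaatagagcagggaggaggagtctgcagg
Cyp2j5, chr4:96664120-96664369, minus strand: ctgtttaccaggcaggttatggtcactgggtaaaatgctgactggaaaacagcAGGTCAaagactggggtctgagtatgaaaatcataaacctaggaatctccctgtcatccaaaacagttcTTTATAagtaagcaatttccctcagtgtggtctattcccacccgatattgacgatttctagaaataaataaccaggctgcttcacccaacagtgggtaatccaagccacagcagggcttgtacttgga

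These 4 windows share none of the searched motifs apart from GCGTG, found in Cyp2j12 and Cyp2j9, and only Cyp2j5 holds TATAAA and AGGTCA. A promoter was listed for 36 of the 43 tested members. TATAAA was present in 17 of the 36 (47.2%), against 14.3% of 27025 genes with a listed promoter. AGGTCA was present in 8 of 36 (22.2%, against 15.8%), GTTAAT in 7 (19.4%, against 7.49%), GCGTG in 8 (22.2%, against 30.9%) and CAGATG in 5 (13.9%, against 16.3%). These are counts of letters and not of bound sites.

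Cyp2j genes encode epoxygenases that turn arachidonic acid into epoxyeicosatrienoic acids, and Cyp2j5 is known best from kidney and liver and Cyp2j6 from small intestine. Cyp2j12 (ENSMUSG00000081225) had 53.1, 45.2, 26.7, 51.1 and 20.9 cpm in the GUCY2Chi libraries of mice 2, 7, 12, 14 and 15, the order used for every gene below. No read of it was counted in any of the 5 GUCY2Cmed libraries. Against a floor of 3 counts per library it was at least 162-fold higher in GUCY2Chi cells (adjusted p = 1.99e-05), and its level was lowest in mice 12 and 15.

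Cyp2j5 (ENSMUSG00000052520) showed the same pattern, with 152, 99.7, 49.1, 123 and 57.9 cpm in GUCY2Chi and 0.0936, 0.241, 0, 0 and 0.770 cpm in GUCY2Cmed libraries. In all, 7087 reads against 13 gave a ratio of 460 (95% exact interval 269 to 864, which covers counting error only), and the adjusted p was 1.37e-05. The groups did not overlap, and again mice 12 and 15 had the lowest GUCY2Chi values. Of the 13 GUCY2Cmed reads, 9 came from mouse 15, and without that library the log2 fold change moved from 8.77 to 10.08 (adjusted p = 3.05e-05).

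Cyp2j6 (ENSMUSG00000052914), which lies between them, went the other way. It had 260.2, 187, 342, 233 and 379.9 cpm in GUCY2Chi and 689, 634, 516, 359.8 and 605 cpm in GUCY2Cmed libraries, and was lower in GUCY2Chi cells of 5 of 5 mice (log2 fold change -0.999 ± 0.25 (SE), adjusted p = 0.00874). The groups overlapped by the value of GUCY2Chi mouse 15 against that of GUCY2Cmed mouse 14. Of 10 fits that left out 1 library, this call was kept only without GUCY2Chi mouse 15 or GUCY2Cmed mouse 14, with adjusted p from 0.00530 to 0.0340, and it was lost with the replicate number as block (adjusted p = 0.0192).

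Cyp2j9, next to Cyp2j6, had 17.4 ± 4.04 cpm in GUCY2Chi and 17.7 ± 3.00 cpm in GUCY2Cmed cells (SD, n = 5), a log2 difference of -0.03 ± 0.21 (SE). Of the 4 Cyp2j members too low to test, Cyp2j7 had 10, 4, 2, 4 and 4 reads in GUCY2Chi and none in GUCY2Cmed libraries, and it was called higher when no filter on low counts was used. The tested genes on either side of the cluster were Hook1 (log2 fold change -0.59, adjusted p = 0.0594) and E130114P18Rik (2.64, adjusted p = 0.0209), neither past the threshold. None of the tested Cyp2j transcripts shares a 100-base window with a coding transcript of another gene. No transcript listed as Cyp2j7 was among those searched, and pseudogenes were left out, so sharing with these is not known.

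**Figure D2:**
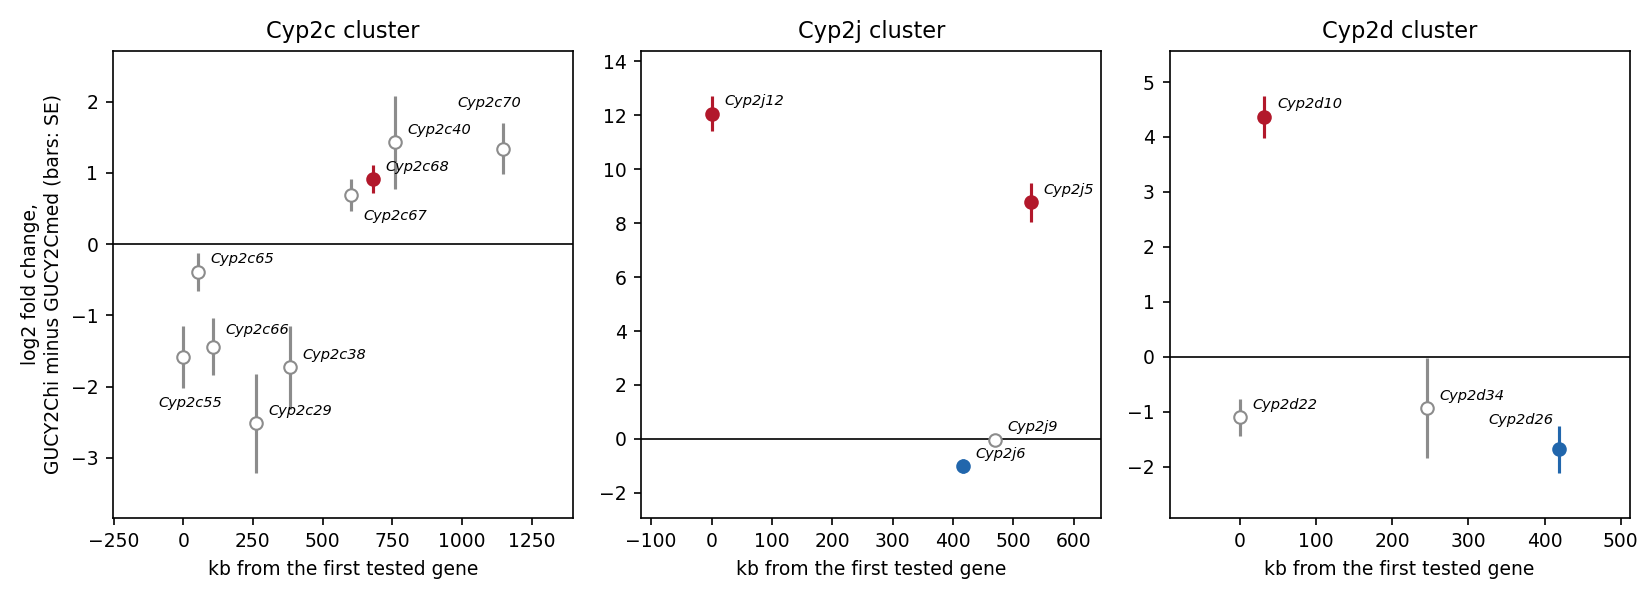
Log2 fold change (y axis, bars are standard errors) of the tested genes of the Cyp2c, Cyp2j and Cyp2d clusters by distance in kb from the first tested gene of each (x axis), with filled points for an adjusted p below 0.01. In the Cyp2c panel the first 5 genes lie below 0 and the next 4 above it, and in the Cyp2j and Cyp2d panels genes above and below 0 lie side by side. Cyp2c23, which lies farther off, is left out, and the value of Cyp2j12 depends on the prior count.

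Cyp2f2 and Cyp2d10 were the other members with large differences. Cyp2f2 (ENSMUSG00000052974, chromosome 7, 27119909 to 27133660), known as the naphthalene-activating P450 of lung club cells, had 5.65, 13.1, 12.8, 14.95 and 3.09 cpm in GUCY2Chi and 0.281, 0.161, 0, 0.150 and 0 cpm in GUCY2Cmed libraries. The read totals of 713 and 7 gave a ratio of 85.9 (95% exact interval 41.5 to 215, which covers counting error only), and the adjusted p was 1.18e-04. Every GUCY2Chi library exceeded every GUCY2Cmed library, and within the GUCY2Chi group mouse 12 had the middle value and mouse 15 the lowest.

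Cyp2d10 (ENSMUSG00000094806, chromosome 15, 82402846 to 82407195), a member of the subfamily that holds the human debrisoquine hydroxylase, had 16.1, 12.4, 14.2, 30.3 and 8.63 cpm in GUCY2Chi and 0.562, 0.963, 0.864, 0.901 and 0.599 cpm in GUCY2Cmed libraries. Its log2 fold change was 4.37 ± 0.38 (SE, adjusted p = 1.71e-05), with no overlap between the groups. Of the 100-base windows of its transcript, 14.9% occur in another gene, most often Cyp2d11 (10.7%), so part of its reads could be assigned to a paralogue. Cyp2d11 itself was too low to test.

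The other tested Cyp2d genes had negative fold changes. Cyp2d26 (ENSMUSG00000022445), in the same cluster on chromosome 15, had 86.7, 94.5, 307, 126 and 399.6 cpm in GUCY2Chi and 671, 575, 591, 623 and 809 cpm in GUCY2Cmed libraries (log2 fold change -1.69 ± 0.42 (SE), adjusted p = 0.00881). All GUCY2Chi libraries were below all GUCY2Cmed libraries, and mice 12 and 15 were nearest to them. Of 10 fits without 1 library, the call was kept without GUCY2Chi mouse 12 or 15 (adjusted p up to 0.0331 in the others), whereas without GUCY2Chi libraries 12 and 15 the log2 fold change was -2.65. Cyp2d22, often taken as the mouse counterpart of human CYP2D6, was at 17.6 ± 9.01 against 37.8 ± 8.62 cpm (SD, n = 5, adjusted p = 0.0232).

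**Figure D3:**
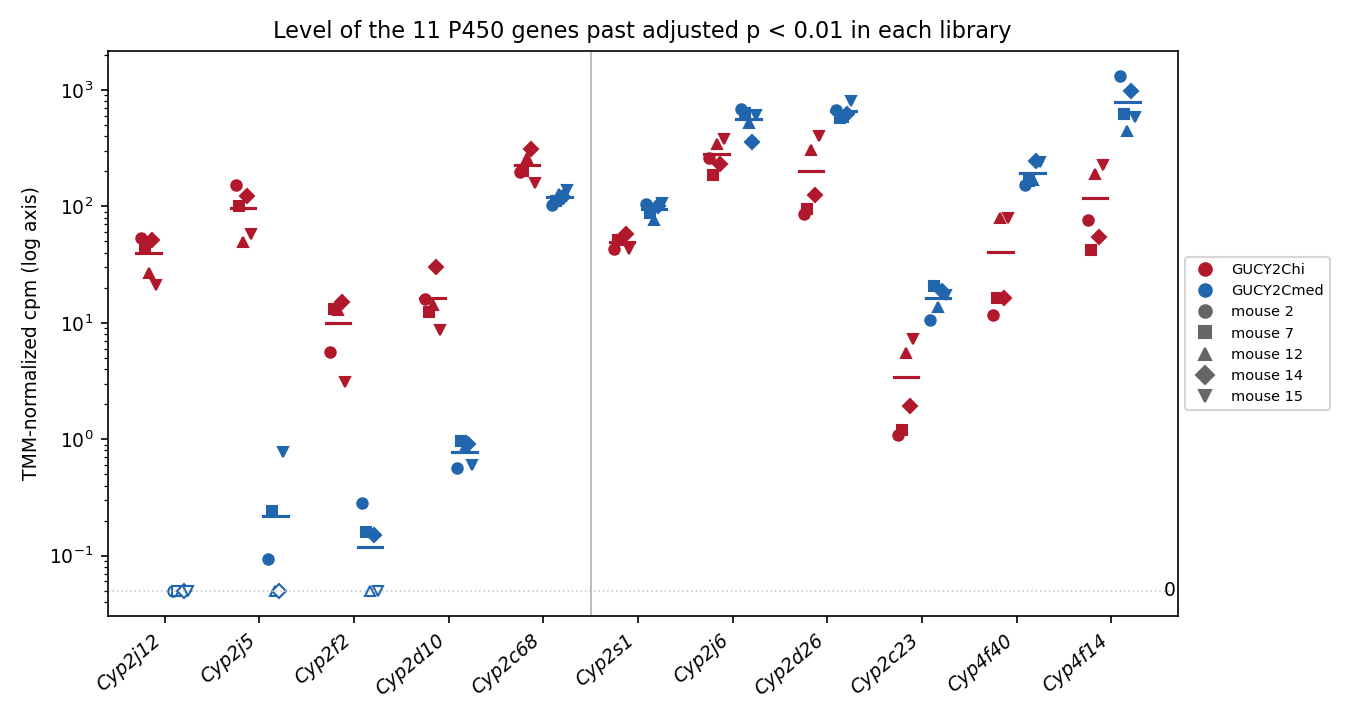
TMM-normalized cpm (y axis, log scale) of the 11 called members in each GUCY2Chi (red) and GUCY2Cmed (blue) library, with a marker shape for each mouse, bars for group means and open markers at the bottom for libraries with no read. Cyp2j12 has no read in any of the 5 GUCY2Cmed libraries, and to the right of the line the GUCY2Chi libraries of mice 12 and 15 lie above the other 3 for all but Cyp2s1.

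The Cyp2c subfamily, epoxygenases and hydroxylases of arachidonic acid, drugs and steroids, had fold changes whose sign differed by position on chromosome 19. Most of its tested genes did not pass the test. From 39007019 to 39463075, Cyp2c55, Cyp2c65, Cyp2c66, Cyp2c29 and Cyp2c38 had log2 fold changes of -1.58, -0.39, -1.44, -2.51 and -1.73, none past the threshold (adjusted p 0.0138 to 0.288). Cyp2c55 passed with the replicate block in edgeR (0.00882). Cyp2c29, Cyp2c55 and Cyp2c66 passed in limma-voom, and DESeq2 called the same genes and Cyp2c38. From 39608842 to 40187333, Cyp2c67, Cyp2c68, Cyp2c40 and Cyp2c70 had log2 fold changes of 0.69, 0.91, 1.43 and 1.34, of which Cyp2c68 passed. Cyp2c40 was scarce, at a mean of 1.15 cpm in GUCY2Chi and 0.416 cpm in GUCY2Cmed cells, with overlapping groups (adjusted p = 0.104). Cyp2c67 and Cyp2c70 passed in DESeq2 and with library size only. Cyp2c23, which lies apart at 44005022 to 44029208, was lower. Of the tested genes flanking the main cluster, Hells was itself lower (log2 fold change -1.29, adjusted p = 0.00925) and Pdlim1 did not pass (-0.74, adjusted p = 0.0105).

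The stretches around the HNF4-type element are shown because CAAAGTCCA was common before the starts of tested members. It was present in 6 of the 36 with a listed promoter (16.7%), against 0.451% of 27025 genes with one. Those 6 include all 4 Cyp2c genes with positive fold changes. The other holders, Cyp2c65 and Cyp3a11, had negative log2 fold changes (-0.39 and -2.23). A link between the element and the levels was not tested. Each window is from RefSeq (GRCm38.p6) and spans the element, in capitals, with 35 bases on each side, and the element was on the strand of the gene in all 5.
Cyp2c65, chr19:39060855-39060933, plus strand: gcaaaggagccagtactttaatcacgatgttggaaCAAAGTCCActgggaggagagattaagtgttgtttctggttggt
Cyp2c67, chr19:39649124-39649202, minus strand: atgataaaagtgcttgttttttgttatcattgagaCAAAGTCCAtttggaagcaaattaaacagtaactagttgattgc
Cyp2c68, chr19:39741135-39741213, minus strand: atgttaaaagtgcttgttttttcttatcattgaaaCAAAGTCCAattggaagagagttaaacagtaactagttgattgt
Cyp2c40, chr19:39812816-39812894, minus strand: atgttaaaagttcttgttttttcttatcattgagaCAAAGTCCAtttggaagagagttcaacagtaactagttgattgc
Cyp2c70, chr19:40187307-40187385, minus strand: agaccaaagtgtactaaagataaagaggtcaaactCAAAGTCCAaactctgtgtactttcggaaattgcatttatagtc

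The windows of Cyp2c67, Cyp2c68 and Cyp2c40 are close copies of each other, so the element in these 3 neighbours is not independent. Their transcripts also share sequence: 23.7%, 19.8% and 44.1% of their 100-base windows occur in another gene, mostly Cyp2c40 or the untested Cyp2c69, and counts could be split among them. Cyp2c70 shares none.

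Cyp2c68 (ENSMUSG00000074882) had 197, 201, 259, 309.7 and 159.5 cpm in GUCY2Chi and 102, 111, 127, 119 and 139 cpm in GUCY2Cmed libraries. The difference was modest, at a log2 fold change of 0.91 ± 0.20 (SE, adjusted p = 0.00434), and the groups did not overlap. It was called in 8 of 10 fits that left out 1 library, the exceptions being GUCY2Cmed mice 7 and 14 (adjusted p up to 0.0128), and not when mice were paired (adjusted p = 0.0156). Cyp2c70, which makes muricholic acids in mouse liver, was at 13.9 ± 6.002 against 5.49 ± 2.16 cpm (SD, n = 5) and missed the threshold (adjusted p = 0.0117, and 0.00197 without GUCY2Chi libraries 12 and 15). Those were its lowest GUCY2Chi libraries, so the smaller p-value without them is not further support.

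Cyp2c65, which with Cyp2c66 is known as an intestinal member, had the highest cpm of the subfamily, with 198, 157, 287, 454 and 298 cpm in GUCY2Chi and 375, 341, 297, 380.1 and 430.2 cpm in GUCY2Cmed libraries. The groups overlapped, and the GUCY2Chi library of mouse 14 was the highest of all 10. The log2 difference was -0.39 ± 0.27 (SE, adjusted p = 0.288). Its neighbour Cyp2c66 was at 35.7 ± 21.5 against 96.9 ± 8.87 cpm (SD, n = 5) with no overlap (adjusted p = 0.0152). The pair share 7.8% and 8.6% of their windows with each other.

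Cyp2c23 (ENSMUSG00000025197), an arachidonic acid epoxygenase known from kidney, had 1.08, 1.21, 5.45, 1.93 and 7.31 cpm in GUCY2Chi and 10.6, 20.6, 13.8, 18.8 and 17.5 cpm in GUCY2Cmed libraries. Every GUCY2Chi library was lower, with mice 12 and 15 nearest to the other group (log2 fold change -2.25 ± 0.52 (SE), adjusted p = 0.00585). Of 10 fits without 1 library, the call was kept without GUCY2Chi mouse 12 or 15 (adjusted p up to 0.0197 in the others), and without GUCY2Chi libraries 12 and 15 the adjusted p was 2.70e-05.

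The xenobiotic-inducible subfamilies 1a, 2a, 2b and 3a had negative fold changes for all 9 tested genes. None passed in edgeR with the filter and all libraries, with or without the replicate block. With no filter edgeR called Cyp3a13 (adjusted p = 0.00708). Without GUCY2Chi mouse 15 it called Cyp3a13, Cyp3a25 and Cyp3a59 (0.00537, 0.00888 and 0.00394). Mouse 15 was their highest GUCY2Chi library, so these calls are not further support. DESeq2 called Cyp2a5, Cyp2b10, Cyp3a11, Cyp3a13 and Cyp3a25. In limma-voom Cyp2b10, Cyp3a11, Cyp3a25 and Cyp3a13 passed, both without the block (adjusted p from 0.00578 to 0.00856) and with it (0.00429 to 0.00910). Cyp3a11, a target of the pregnane X receptor that oxidizes many drugs and bile acids, had 226, 169, 1893, 281 and 1891 cpm in GUCY2Chi and 3967, 4681, 4452, 3982 and 3893 cpm in GUCY2Cmed libraries. All GUCY2Chi libraries were lower, and they formed a low set of mice 2, 7 and 14 and a set nearer to GUCY2Cmed of mice 12 and 15. With all libraries the log2 fold change was -2.23 ± 0.68 (SE, adjusted p = 0.0229), and without GUCY2Chi libraries 12 and 15 it was -4.20 (adjusted p = 1.75e-06).

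Cyp2b10, a target of the constitutive androstane receptor, followed the same division. It had 47.5, 32.9, 549, 36.9 and 586 cpm in GUCY2Chi and 1193, 1199, 1327, 1195 and 1569 cpm in GUCY2Cmed libraries, with no overlap (adjusted p = 0.0378, and 6.18e-07 without GUCY2Chi libraries 12 and 15). Cyp3a25 was at 230.0 ± 259 against 1314 ± 140.2 cpm (SD, n = 5, adjusted p = 0.0228, and 3.64e-07 without those libraries). For Cyp3a11, Cyp2b10 and Cyp3a25, mice 12 and 15 were the highest GUCY2Chi libraries, so the smaller p-values without them are not further support. Cyp3a13 differed in that its GUCY2Cmed levels also varied among mice, from 343 to 1289 cpm, against 28.0 to 291 cpm in GUCY2Chi libraries (adjusted p = 0.0110, and 0.00572 without those libraries).

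Cyp1a1, the aryl hydrocarbon receptor target that oxidizes polycyclic aromatics, had 0.941, 1.15, 16.3, 0.154 and 15.7 cpm in GUCY2Chi and 32.6, 43.5, 32.4, 11.6 and 30.2 cpm in GUCY2Cmed libraries. Its level was lower in GUCY2Chi cells of 5 of 5 mice, but the GUCY2Chi libraries of mice 12 and 15 exceeded GUCY2Cmed mouse 14 (adjusted p = 0.0887, and 1.12e-04 without GUCY2Chi 12 and 15). Cyp2a5, a coumarin hydroxylase, was near the detection limit, with 0.202, 0, 0, 0 and 0.378 cpm in GUCY2Chi and 3.84, 1.36, 0.0720, 0.826 and 1.20 cpm in GUCY2Cmed libraries (adjusted p = 0.0244). It shares 9.6% of its windows with Cyp2a4.

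Among fatty acid hydroxylases of family 4, 2 of 11 tested genes passed the test, both lower and both in subfamily Cyp4f on chromosome 17. Cyp4f14 (ENSMUSG00000024292, 32905071 to 32917342), which hydroxylates leukotriene B and vitamin E, had 76.9, 41.9, 190.0, 54.3 and 225 cpm in GUCY2Chi and 1306, 623, 445, 976 and 581 cpm in GUCY2Cmed libraries. The groups did not overlap, and the log2 fold change of -2.74 ± 0.52 (SE, adjusted p = 0.00209) was the most negative of the 11 called members. It was called in 10 of 10 fits without 1 library but not in the blocked edgeR fit (adjusted p = 0.0107). Without GUCY2Chi libraries 12 and 15 its log2 fold change was -3.74.

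Cyp4f40 (ENSMUSG00000090700, 32659410 to 32676687) had 11.6, 16.3, 79.4, 16.4 and 79.7 cpm in GUCY2Chi and 151, 167, 170.1, 245 and 239.6 cpm in GUCY2Cmed libraries (log2 fold change -2.26 ± 0.55 (SE), adjusted p = 0.00777). All GUCY2Chi libraries were lower, again in 2 sets, and of 10 fits without 1 library the call was kept without GUCY2Chi mouse 12 or 15 (adjusted p up to 0.0260 in the others). Leaving out both gave a log2 fold change of -3.69.

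Cyp4f16 is named here after its values were seen, because it varied widely between mice. It had 59.5, 5.67, 71.2, 2.78 and 132 cpm in GUCY2Chi and 456, 137, 141, 6.91 and 269 cpm in GUCY2Cmed libraries. The value was lower in GUCY2Chi cells of 5 of 5 mice, yet mouse 14 was lowest in both groups, and the adjusted p was 0.174 without the block and 0.0297 with it. Cyp4f13 also had its lowest GUCY2Cmed value in mouse 14 and its highest in mouse 15 (133 and 511 cpm), and its adjusted p was 0.0402 without the block and 0.00689 with it. Of the windows of Cyp4f16, 9.7% occur in Gm9705.

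**Figure D4:**
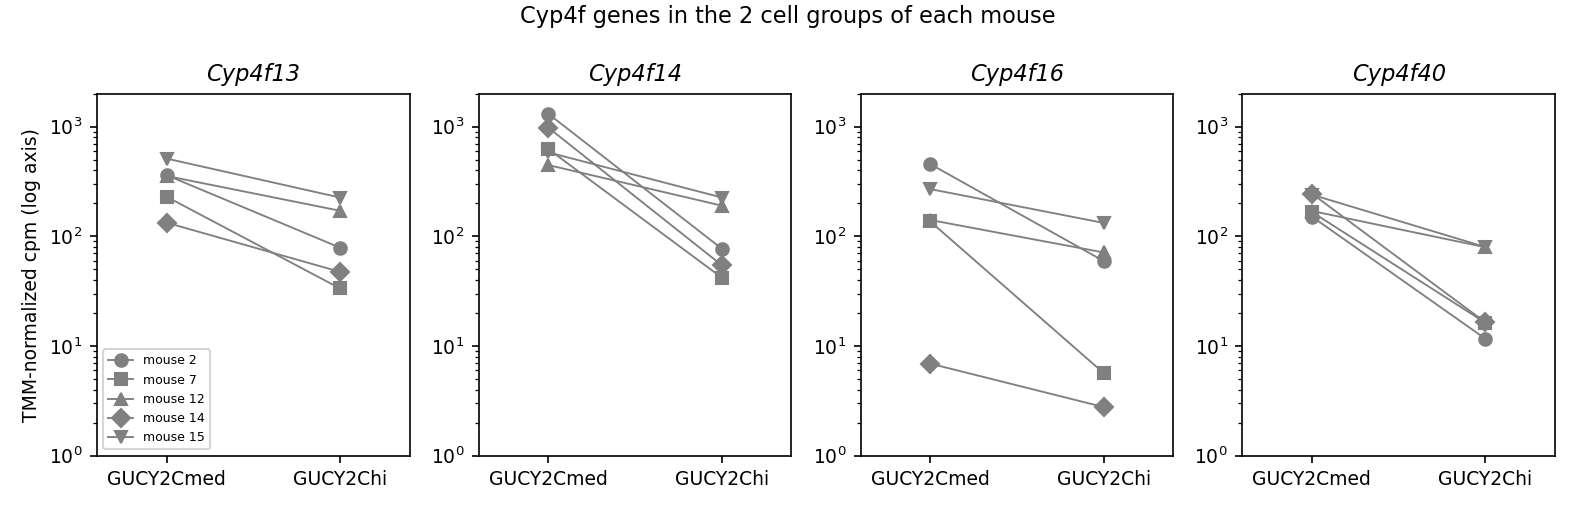
TMM-normalized cpm (y axis, log scale) of 4 Cyp4f genes in the GUCY2Cmed and GUCY2Chi library of each mouse (joined points, 1 marker shape per mouse). Every line falls, and for Cyp4f16 mouse 14 starts at 6.91 cpm where the other 4 mice start at 137 cpm or more.

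Cyp4b1, a lung and intestinal enzyme that activates furans, was the highest member of families 1 to 4 in cpm per listed length in GUCY2Chi cells. It had 598, 434, 342, 559 and 204 cpm in GUCY2Chi and 301, 227, 127, 170.4 and 151 cpm in GUCY2Cmed libraries. Its level was higher in GUCY2Chi cells of 5 of 5 mice, the groups overlapped, and the log2 fold change of 1.13 ± 0.32 (SE) did not pass (adjusted p = 0.0170). Without GUCY2Chi libraries 12 and 15 the log2 fold change was 1.47 (adjusted p = 0.00135), and with the block in limma-voom the adjusted p was 0.00618. Mice 12 and 15 were the lowest GUCY2Chi libraries for Cyp4b1, so the smaller p-value without them is not further support.

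Cyp4v3, a fatty acid hydroxylase, had 118, 80.9, 396, 139 and 593 cpm in GUCY2Chi and 1125, 648, 749, 951 and 1225 cpm in GUCY2Cmed libraries, with no overlap (adjusted p = 0.0160, and 2.59e-05 without GUCY2Chi 12 and 15). It passed in limma-voom without and with the block (0.00610 and 0.00406), but not with the block in edgeR (0.0107). Cyp4a10, a target of PPAR alpha, had 1.75, 1.39, 19.9, 0.0771 and 24.3 cpm in GUCY2Chi and 37.8, 97.4, 47.7, 30.7 and 59.6 cpm in GUCY2Cmed libraries (adjusted p = 0.0573, and 1.64e-04 without GUCY2Chi 12 and 15). For both genes these were the highest GUCY2Chi libraries, so the smaller p-values without them are not further support. Cyp4v3 and Cyp4a10 share 7.5% and 12.7% of their windows with other genes, most often Klkb1 and Cyp4a32.

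Cyp4x1, known from brain, was scarce in both groups, at 0, 1.21, 0.908, 0.308 and 1.70 cpm in GUCY2Chi and 0.374, 0.0803, 0.576, 1.05 and 0.171 cpm in GUCY2Cmed libraries (adjusted p = 0.495). The summed level of 8 forebrain neuron markers varied widely beside it, from 30.3 to 1240 cpm in GUCY2Chi and 13.3 to 690.2 cpm in GUCY2Cmed libraries, and their part in the value was not tested.

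Of the subfamilies 2s, 2u, 2r and 2e, with 1 tested gene each, 1 was lower. Cyp2s1 (ENSMUSG00000040703, chromosome 7, 25802475 to 25816913), an epithelial P450 that acts on retinoids and prostaglandins, had 42.9, 51.9, 52.5, 58.2 and 42.8 cpm in GUCY2Chi and 105, 87.6, 76.8, 102 and 106 cpm in GUCY2Cmed libraries. It was lower in GUCY2Chi cells by a log2 fold change of -0.94 ± 0.15 (SE, adjusted p = 8.80e-04) with no overlap, and the call was kept in 10 of 10 fits without 1 library. Mice 12 and 15, at 44.8% to 55.0% of the GUCY2Cmed mean, did not stand apart from mice 2, 7 and 14, at 44.9% to 61.0%.

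Cyp2u1, a fatty acid hydroxylase, was close in both groups, with 13.3, 11.2, 12.3, 14.2 and 13.1 cpm in GUCY2Chi and 12.9, 15.4, 12.7, 16.7 and 18.7 cpm in GUCY2Cmed libraries (log2 difference -0.26 ± 0.17 (SE), adjusted p = 0.264). Cyp2r1, a vitamin D 25-hydroxylase, had 0, 0.844, 1.36, 0.540 and 1.20 cpm against 0.468, 1.85, 1.30, 0.225 and 2.74 cpm. Cyp2e1, the ethanol-inducible enzyme, had 0.941, 0.121, 0.606, 1.002 and 0.819 cpm against 0.655, 0.803, 0.216, 1.28 and 0.514 cpm. Neither passed (adjusted p = 0.536 and 0.998), with a log2 difference of -0.73 ± 0.83 (SE) for Cyp2r1 and of 0.0034 ± 0.61 (SE) for Cyp2e1.

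Relative to GUCY2Cmed, the GUCY2Chi libraries of mice 12 and 15 held more of most members with negative fold changes. Both were above mice 2, 7 and 14 for 24 of these 30 members (80.0%), against 38.3% of the 7129 tested genes with a negative fold change. Cyp3a11 stood at 45.1% of the GUCY2Cmed mean in both mice 12 and 15 and at 4.03% to 6.71% in the other 3, close in value to the summed enterocyte markers. Cyp2b10 stood at 42.3% to 45.2% against 2.53% to 3.66%, and Cyp4a10 at 36.4% to 44.5% against 0.141% to 3.20%. The part of enterocyte RNA in these levels was not tested, and Cyp2s1 and Cyp2u1 show that the division was not general to all members.

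**Figure D5:**
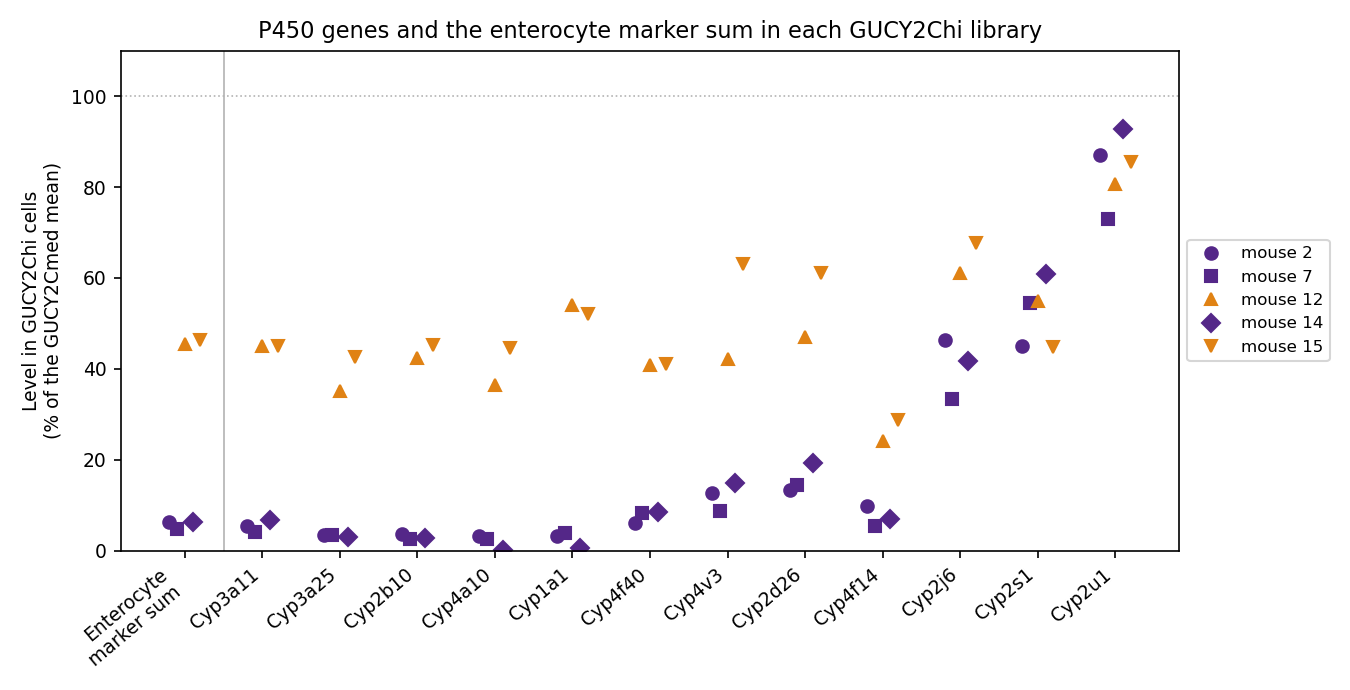
Level in each GUCY2Chi library as a percentage of the GUCY2Cmed mean (y axis) for the summed enterocyte markers and 12 members (x axis), with mice 12 and 15 in orange and mice 2, 7 and 14 in purple. For Cyp3a11 the orange points lie at 45.1% and the purple ones at 6.71% or below, as with the markers, whereas the colors mix for Cyp2s1 and Cyp2u1.

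The higher members Cyp2j5, Cyp2f2 and Cyp2d10 are known from liver, lung or kidney, so markers of hepatocytes were examined. Of 14 on the list, 8 were tested, of which Alb, Serpina1a, Tat, Hpx and Tdo2 were higher and Cps1 was lower in GUCY2Chi cells. These are 62.5% and 12.5% of those tested, against 13.9% and 8.79% of all tested genes. Ttr, at 102 against 41.2 cpm and higher in GUCY2Chi cells of 5 of 5 mice, did not pass (adjusted p = 0.0545). Neither did Apoh, at 3.22 against 3.57 cpm. Of the untested genes, Fga averaged 0.125 cpm in GUCY2Chi and 0.0187 cpm in GUCY2Cmed cells. No read of Ahsg, Fgb, Fgg, Serpina3k or Mup3 was counted in any GUCY2Chi library. The summed level of the list was 209 to 332 cpm in GUCY2Chi and 328 to 492 cpm in GUCY2Cmed cells, a direction set by Cps1. Without Cps1 the mean levels summed to 151.4 cpm in GUCY2Chi and 45.6 cpm in GUCY2Cmed cells, and the median log2 fold change of all 8 tested genes, Cps1 included, was 5.04. The part of such RNA in the P450 levels was not tested.

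The partners of P450 enzymes were taken from lists made by known function. Of 16 genes for electron transfer and heme supply, 15 were tested, 8 were lower (53.3%, against 8.79% of all tested genes) and none higher (against 13.9%), with a median log2 fold change of -0.94 against 0.09 for all tested genes. Their summed level in mice 12 and 15 was 57.1% and 55.4% of the GUCY2Cmed mean, against 31.7% to 42.3% in mice 2, 7 and 14, a division that the enterocyte markers also showed, and the part of enterocyte RNA was not tested. The lower genes included Cyb5a, Cyb5b and Cyb5r3 of the cytochrome b5 route (log2 fold changes -1.78, -1.41 and -1.49) and the heme synthesis enzymes Alas1, Alad, Cpox and Ppox (-1.61, -1.05, -0.98 and -1.14). Alas1, the first and controlling step, was at 95.1 ± 25.8 against 291 ± 58.6 cpm (SD, n = 5, adjusted p = 4.11e-04). Por, the oxidoreductase that serves all microsomal P450s, was at 342 ± 54.5 against 439.9 ± 112 cpm and did not pass (log2 difference -0.36 ± 0.21 (SE), adjusted p = 0.199).

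Of 18 transcription factors and cofactors known to control P450 genes, 17 were tested, 7 were lower (41.2%, against 8.79% of all tested genes) and none higher (against 13.9%), with a median of -0.998. The summed level was 49.5% and 45.5% of the GUCY2Cmed mean in mice 12 and 15 and 39.8% to 42.3% in the other 3. The lower genes were Ahr, the pregnane X receptor Nr1i2, its partner Rxra, the vitamin D receptor Vdr, Cebpb, Nfe2l2 and Ppargc1a, with log2 fold changes of -1.44, -1.25, -1.56, -1.76, -1.83, -1.64 and -1.80. Nr1i2 was at 11.5 ± 3.27 against 27.3 ± 4.54 cpm (SD, n = 5, adjusted p = 0.00144).

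Of 22 other oxidizing and epoxide enzymes, 20 were tested, with 2 higher (10%, against 13.9% of all tested genes) and 8 lower (40%, against 8.79%) and a median of -1.54. The summed level in mice 12 and 15 was 49.2% and 43.4% of the GUCY2Cmed mean, against 19.1% to 27.6% in mice 2, 7 and 14, as with the enterocyte markers. As with the P450 genes, near relatives went opposite ways: the flavin monooxygenases Fmo1 and Fmo2 were higher (log2 fold changes 1.86 and 5.17) and Fmo4 and Fmo5 lower (-2.20 and -1.42). Fmo2 was at 30.6 ± 19.0 against 0.844 ± 0.364 cpm (SD, n = 5, adjusted p = 5.19e-05). The others that were lower were the epoxide hydrolase Ephx1, the carboxylesterase Ces1e, the dehydrogenases Adh1, Adh4 and Aldh3a2, and the reductase Akr1c19, with log2 fold changes from -2.24 to -0.73.

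Of 20 P450 genes outside families 1 to 4, which mostly act on sterols, bile acids, retinoids and steroid hormones, only 9 were tested, of which 1 was higher (11.1%, against 13.9% of all tested genes) and 2 were lower (22.2%, against 8.79%). Cyp20a1, whose substrate is not established, was higher at 23.1 ± 7.504 against 8.24 ± 2.65 cpm (SD, n = 5, log2 fold change 1.48, adjusted p = 0.00310). The steroid hydroxylase Cyp17a1 (-3.08) and the sterol hydroxylase Cyp27a1 (-1.999) were lower, and the median of the 9 was 0.11.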

How the data were processed

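RNA of GUCY2Chi and GUCY2Cmed cells from 5 mice was sequenced in 10 libraries. The authors deposited unscaled read counts per gene, for which a sequencing company mapped the paired reads using STAR and did the counting. Deposited FPKM values are relative to gene length and depth, and served only to order genes within a group. The table also holds 10 normalized columns of single samples and the authors' fold changes and p-values (made per the labels with limma 3.40.6 and edgeR 3.26.8), which were not used.

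The main fit was edgeR 4.0.16 under R 4.3.3 (glmQLFTest, TMM factors, no term for the mouse). A gene entered it above 0.5 cpm in 3 or more libraries, the filter of the study, and adjusted p below 0.01 was called. Levels are TMM-normalized cpm, and ± is the SD over mice or the SE of a log2 fold change. Python 3.11.15, pandas 2.3.3 and matplotlib 3.10.9 served for tables and plots. The test was checked on simulated data.

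Sequence sharing was measured on GENCODE vM1 coding transcripts, for 75 of 80 members. It is the percentage of 100-base windows of a member's longest transcript that occur in a coding transcript of another gene. How reads matching several genes were counted is not given in the sources used here. Promoters were matched by symbol for 65 of 80 members. Values in each library are given for the called members and for the member with the highest cpm of each subfamily, and other members are named, after their values were seen, where a cluster or subfamily is described. The values of 1 gene counted in a list are not reported here. The members, lists and alternatives were chosen with earlier results of these data known.

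The alternatives were limma-voom (limma 3.58.1), DESeq2 1.42.0, both edgeR and limma-voom with a replicate block, library size only, RLE factors, omission of the filter, a minimum of 10 counts in each library, a threshold of 0.05, each library left out in turn, and GUCY2Chi libraries 12 and 15 left out. The FPKM order without those libraries and the hepatocyte sum without Cps1 were added after seeing the data. The pairing rests on the labels, where 5 mice were each sorted into both groups and library titles of the 2 groups share their numbers. Deviations from the group means of same-numbered libraries correlated at 0.272 for mouse 12, 0.061 for 15, -0.11 for 2, -0.124 for 14 and -0.223 for 7.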

Additional observations from a re-analysis of the deposited data

How the results depend on the processing

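With 5 members higher and 6 lower in the fit reported, the counts were 8 higher in DESeq2, with library size only and at a threshold of 0.05, and between 4 and 8 without 1 library, with 8 without GUCY2Chi mouse 15. The count of lower members moved more. It was 15 in limma-voom, 16 in DESeq2, 14 with the replicate block in limma-voom, 2 with library size only, 3 with at least 10 counts in every library, 20 at a threshold of 0.05 and 21 without GUCY2Chi libraries 12 and 15. Without 1 library it lay between 2 and 14: 2 without GUCY2Chi mice 2, 7 or 14 or GUCY2Cmed mice 2, 7, 12 or 15, 3 without GUCY2Cmed mouse 14, 8 without GUCY2Chi mouse 12 and 14 without GUCY2Chi mouse 15. Calls over all tested genes, 2186 higher and 1381 lower in the fit reported, moved too. They were 2129 and 1797 in limma-voom and 2960 and 2235 in DESeq2. With the replicate block they were 1824 and 1382 in limma-voom and 1294 and 779 in edgeR. They were 2910 and 557 with library size only, 1497 and 952 with at least 10 counts, and 2711 and 2186 without GUCY2Chi libraries 12 and 15. Without 1 library, 1636 to 2534 were higher and 512 to 1609 lower. Calls over all genes at a threshold of 0.05 are not given here, so the member counts at 0.05 have no share to be set against. The filter of 10 counts removes Cyp2j12, Cyp2j5, Cyp2f2 and Cyp2d10 by construction. Cyp2j12, Cyp2j5, Cyp2f2 and Cyp2d10 were called under every other alternative run, and Cyp2s1 under all. Pairing by the replicate block in edgeR left 4 higher and 6 lower members: Cyp2c68, Cyp2j6 and Cyp4f14 were lost and Cyp2c55 and Cyp4f13 gained. In limma-voom the block lost Cyp2c68 and Cyp2j6 and added Cyp4b1 and, as lower, Cyp2b10, Cyp2c55, Cyp2d22, Cyp3a11, Cyp3a13, Cyp3a25, Cyp4f13, Cyp4f15 and Cyp4v3. Over the called members and the highest of each subfamily, 9 log2 fold changes changed sign. Cyp2e1, at 0.0034 with all libraries and between -0.19 and 0.35 without 1 library, was at -0.10 in limma-voom, -0.024 with its block, -0.07, -0.16 and -0.04 without GUCY2Chi mouse 2, 14 or 15, -0.19 and -0.06 without GUCY2Cmed mouse 12 or 15, and -0.011 without GUCY2Chi libraries 12 and 15, and Cyp2u1 was at 0.031 with library size only. Outside that set, Cyp2j9, at -0.03 with all libraries, changed sign in 6 fits: 0.23 with library size only, 0.09 with at least 10 counts, 0.027 and 0.13 without GUCY2Chi mouse 2 or 7, and 0.058 and 0.071 without GUCY2Cmed mouse 2 or 15. The causes were not tested. At depths of 10903958 to 15307932 reads, the SE of the log2 fold change was 0.61 for Cyp2e1 and 0.83 for Cyp2r1, both near 1 cpm or below, so smaller differences in these could not be told from 0.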
